A study of Homo sapiens with 30 samples.

Results

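The genes described here are 31 genes of fatty acid oxidation and of the PPAR receptors' best known targets. They were chosen by symbol, and every probe set of the array whose annotated gene symbol is exactly one of the 31 was used. On this array 29 of the 31 were measured, by 46 of the 22215 probe sets tested, among 11963 genes measured in all. CPT1B was not analysed here because its 2 probe sets are annotated to several genes together, and no probe set used here carries ACSL3.

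The cells were a co-culture of human intestinal lines. Caco-2, a colorectal adenocarcinoma line that takes on features of absorptive enterocytes once confluent, made up 75% of the cells seeded, and HT29-MTX, a methotrexate-adapted colon adenocarcinoma line that secretes mucus, made up 25%. The mixture was seeded from pooled flasks and grown for 14 days on permeable inserts, and nanoparticle suspensions were then placed on the apical side. The 8 exposed groups received multi-walled carbon nanotubes (MWCNT) or titanium dioxide nanobelts (TiO2-NB) at 10 or 100 µg/ml for 1 h or for 24 h, and 1 control group at each time was given fresh medium without particles on both sides. Each of the 10 groups had 3 arrays, labelled as biological replicates, and 3 µg of total RNA went into each labelling. Both lines derive from tumours, and each array averages over both, so fewer cells of a type and less RNA per cell cannot be told apart.

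Fatty acids are burned by being coupled to coenzyme A, carried into mitochondria by the carnitine shuttle, and shortened in a cycle of dehydrogenation, hydration, dehydrogenation and thiolysis whose electrons enter the respiratory chain through the electron transfer flavoproteins. Peroxisomes run a related cycle on very long and branched chains. PPAR receptors, which bind fatty acids and act on DNA as partners of RXR receptors, switch on many of these genes in fed and fasted tissues, and in the intestine PPARA and PPARG both take part in the handling of dietary fat.

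Values are log2 levels as deposited, already background-corrected and normalised across arrays, so a change says how a transcript moved against the rest of its array. Changes are exposed minus control from limma, with ± as the standard error and n = 3 arrays per group, and a change was called where the p adjusted over all probe sets was under 0.05. A gene read by several probe sets is represented by the brightest of them on average. The array medians lay between 6.45 and 6.49. As a rough check of the labelled cells, 13 of 14 enterocyte markers, 8 of 12 goblet markers and 5 of 5 epithelial markers had a mean level above the median probe set, against 2 of 8 leukocyte markers, 2 of 7 fibroblast and endothelial markers and 1 of 8 markers of adipocytes, hepatocytes and muscle. Between exposed and control arrays at 1 h, none of the 12 goblet markers was called in any of the 4 comparisons, and of the enterocyte markers only APOB (higher) and CDX2 (lower) were called, both at 100 µg/ml MWCNT. The epithelial marker KRT8 rose with TiO2-NB at 10 µg/ml for 1 h, and with TiO2-NB at 100 µg/ml for 24 h the goblet marker MUC5AC and the leukocyte marker CD14 rose. Of the 8 leukocyte markers NKG7 and LYZ rose with all 4 exposures at 1 h, and CD53 with TiO2-NB at 100 µg/ml. The mean level of those 8 markers at 1 h lay between 6.01 and 6.21 on the exposed arrays, against 5.96 to 6.02 on the controls, and the part of all these markers in the results was not tested. The probe set for the 5′ end of 18S ribosomal RNA was higher at 1 h, by 1.17 and 1.51 log2 units with MWCNT at 10 and 100 µg/ml and by 0.84 and 0.80 with TiO2-NB. The exact permutation p of these shifts was 0.1, 0.1, 0.4 and 0.1, where 0.1 is the smallest that 3 arrays against 3 allow.

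The first question was whether the particles changed the cells' equipment for burning fat within 1 h. Few members did change. With MWCNT at 10 µg/ml, 3 of 29 members were called (10.3%, against 7.86% of all genes): ACSL4 rose, and ACOX2 and ETFB fell. With MWCNT at 100 µg/ml, 3 of 29 were called (10.3%, against 9.44% of all genes): ACSL4 rose, and ACOX2 and SLC25A20 fell. With TiO2-NB at 10 µg/ml, 2 of 29 were called (6.9%, against 9.52%), ACOX2 and ETFDH, and both fell. With TiO2-NB at 100 µg/ml, 2 of 29 were called (6.9%, against 10.5%): ACSL4 rose and ACOX2 fell. These shares lie near those of all genes.

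The median change of the members at 1 h was -0.03 and -0.04 with MWCNT at 10 and 100 µg/ml, and -0.03 and -0.06 with TiO2-NB, against -0.02, -0.01, 0.00 and 0.00 over all genes. The exposed and control arrays did not overlap for 10, 7, 4 and 8 of the 29 members in the same order of exposures, against 25.7%, 23.2%, 24.6% and 26.3% of all genes. All 4 comparisons share the same 3 control arrays. Over the 8 comparisons with control, 24 members were called in none and 5 in at least 1. The share of all genes called in at least 1 was not counted, so these numbers have no background to be read against.

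**Figure D1:**
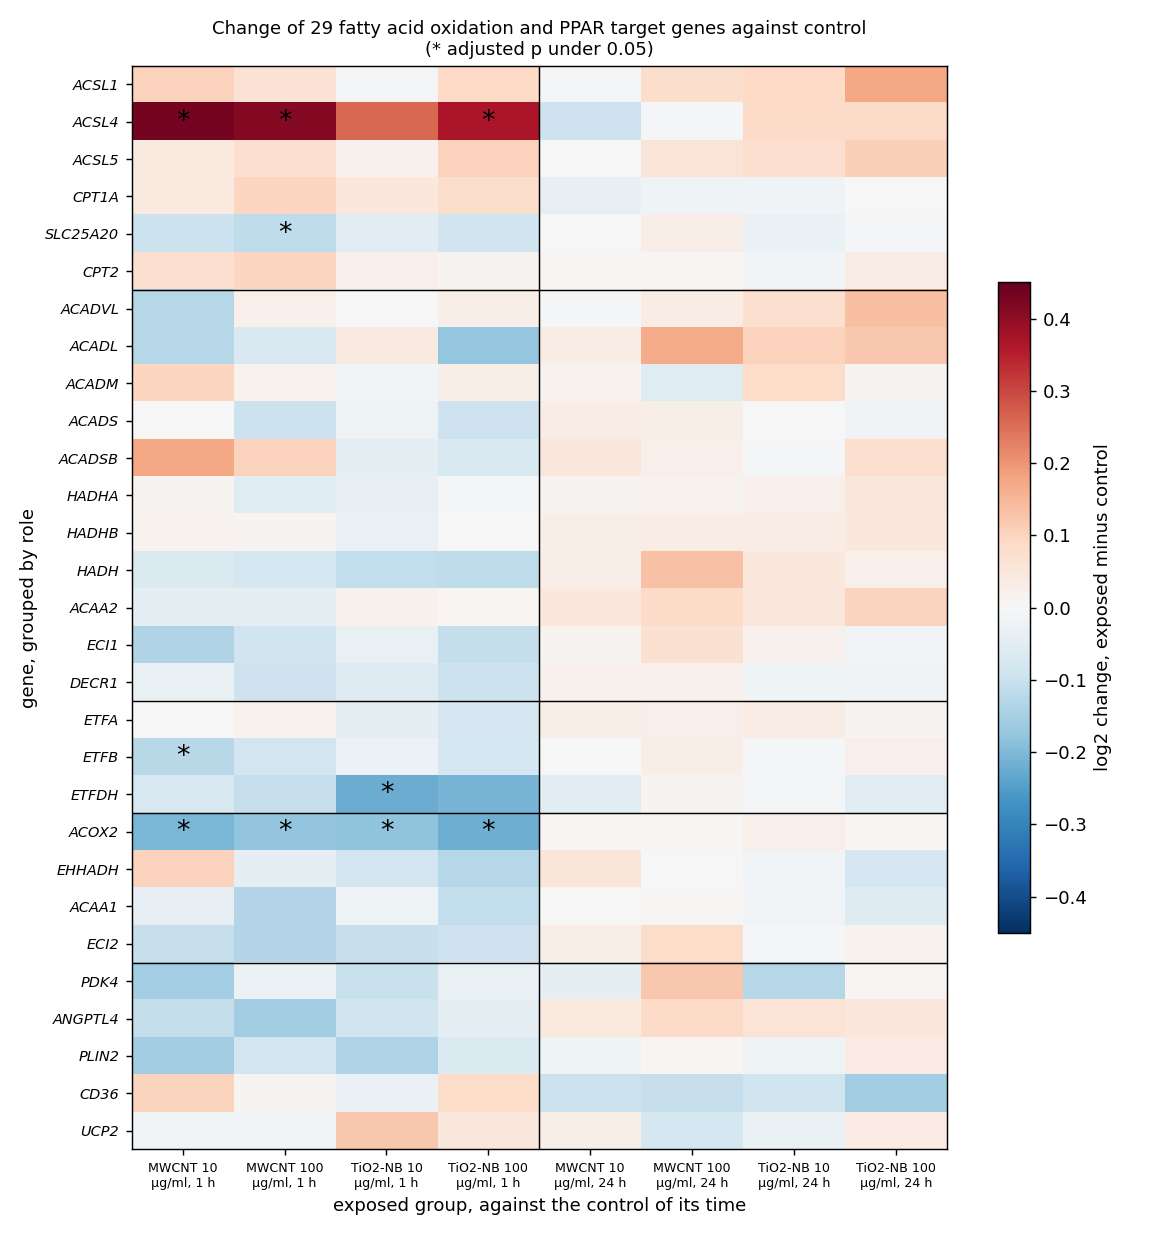
Log2 change of the 29 measured members (rows, grouped by role) in each exposed group against the control of its time (columns), with colour from blue (lower when exposed) to red (higher) and an asterisk at each called change. ACSL4 stands out in red and ACOX2 in blue in the 1 h columns, 10 changes in all are marked there, and the 24 h columns hold no mark.

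ACSL4, which couples coenzyme A to long polyunsaturated fatty acids such as arachidonic acid, had the largest change of any member. Its gene lies on chromosome X from 109641335 to 109733257 on the minus strand (RefSeq, GRCh38.p14). At 1 h its log2 level was 7.37, 7.25 and 7.15 with MWCNT at 10 µg/ml, 7.14, 7.15 and 7.43 with MWCNT at 100 µg/ml, 6.99, 7.06 and 7.20 with TiO2-NB at 10 µg/ml, and 7.21, 7.12 and 7.25 with TiO2-NB at 100 µg/ml, against 6.68, 6.74 and 7.05 in control. Every exposed array lay above every control array except for the lowest of the TiO2-NB arrays at 10 µg/ml, which lay below the highest control. ACSL4 rose by 0.43 ± 0.10 with MWCNT at 10 µg/ml, or 1.35-fold (adjusted p = 0.0127), by 0.41 ± 0.10 with MWCNT at 100 µg/ml (adjusted p = 0.0144), and by 0.37 ± 0.10 with TiO2-NB at 100 µg/ml (adjusted p = 0.0269). With TiO2-NB at 10 µg/ml the change was 0.26 ± 0.10 and was not called (adjusted p = 0.139).

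At 24 h the level of ACSL4 was 7.06, 7.34 and 7.12 with MWCNT at 10 µg/ml and 7.14, 7.22 and 7.42 at 100 µg/ml, and it was 7.34, 7.49 and 7.22 with TiO2-NB at 10 µg/ml and 7.40, 7.41 and 7.25 at 100 µg/ml, against 7.12, 7.38 and 7.30 in control. Exposed and control arrays overlapped at this time in each comparison, and the changes lay between -0.09 and 0.09. The mean of the 1 h controls, 6.82, was the lowest of the 10 group means, and the other 9 lay between 7.08 and 7.35. The 1 h calls of ACSL4 were lost without control array 1 or 2 (adjusted p = 0.0672 and 0.0662 with MWCNT at 10 µg/ml, 0.0783 and 0.0622 at 100 µg/ml, and 0.118 and 0.103 with TiO2-NB at 100 µg/ml). They were also lost without MWCNT array 1 at 10 µg/ml (0.0806), MWCNT array 3 at 100 µg/ml (0.103), or TiO2-NB array 1 or 3 at 100 µg/ml (0.0768 and 0.086), and with the 18S level as a covariate, which gave adjusted p of 0.0589, 0.136 and 0.053 with changes of 0.46, 0.45 and 0.39. With the compared groups fitted alone they were lost too (0.115, 0.162 and 0.129).

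**Figure D2:**
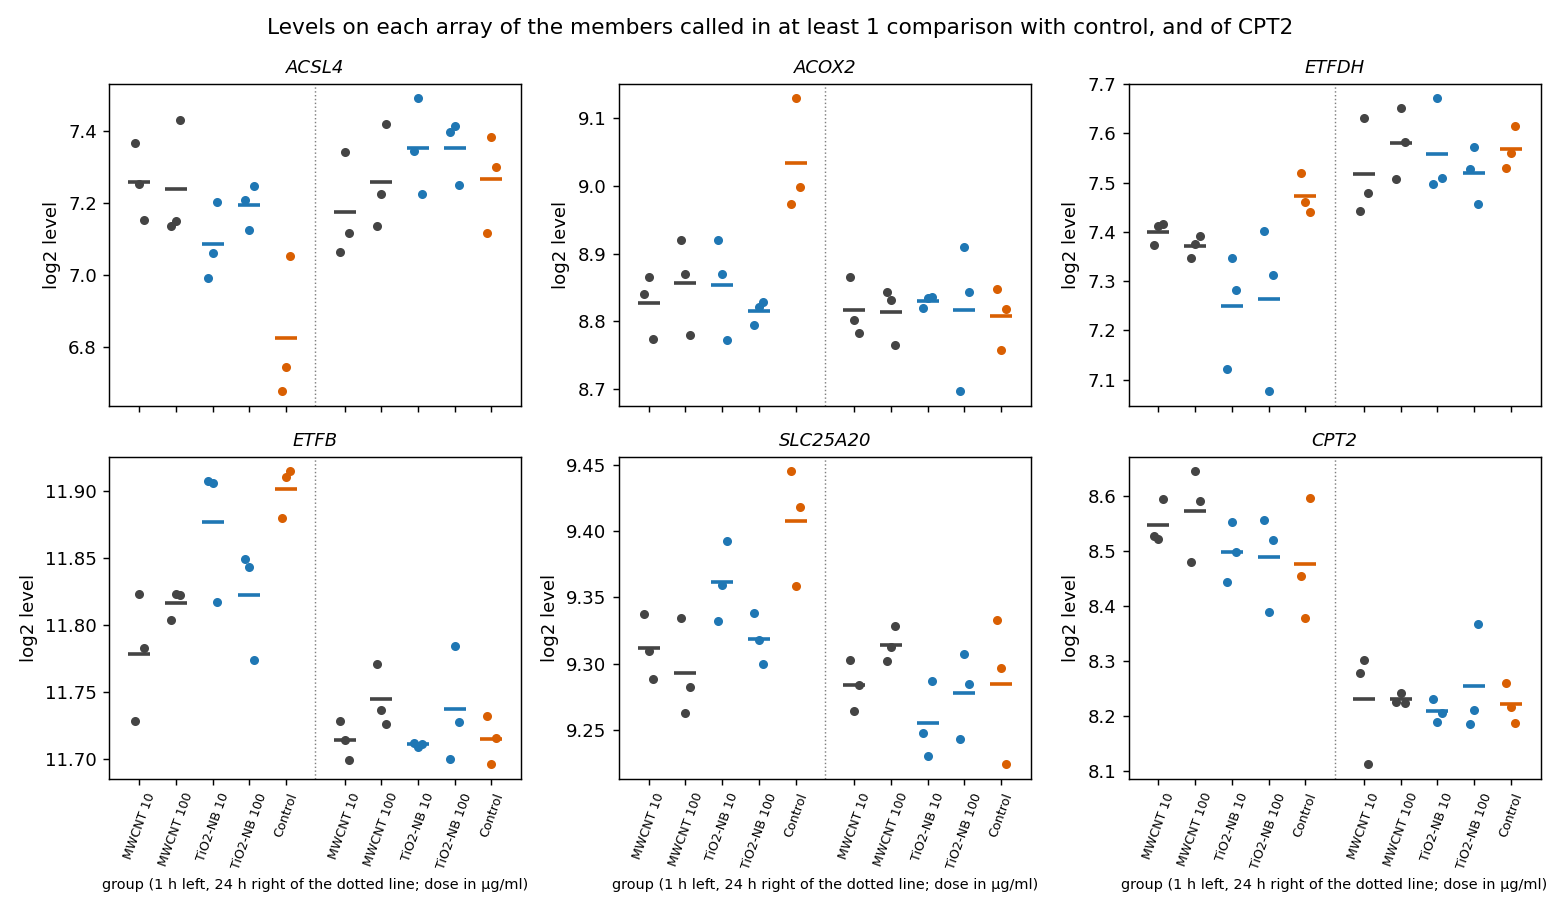
Log2 level on each array (points) and the group mean (bars) of ACSL4, ACOX2, ETFDH, ETFB, SLC25A20 and CPT2 in the 10 groups, with the exposed groups left of their control (orange) and 1 h left of 24 h. The mean of the 1 h controls is the lowest of the 10 for ACSL4, with arrays that overlap those of TiO2-NB at 10 µg/ml, and the highest for ACOX2, and CPT2 separates the 1 h groups from the 24 h groups, exposed and control alike.

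The other activating enzymes and the carnitine shuttle changed little. ACSL1 and ACSL5, synthetases for long saturated and unsaturated chains, changed by -0.01 to 0.17 and by 0.00 to 0.11 across the 8 comparisons with control, and neither was called. CPT1A, the outer-membrane carnitine transferase that sets the rate of entry into mitochondria, had at 1 h 8.37, 8.55 and 8.57 with MWCNT at 10 µg/ml, 8.65, 8.53 and 8.48 at 100 µg/ml, 8.52, 8.50 and 8.49 with TiO2-NB at 10 µg/ml, and 8.54, 8.51 and 8.55 at 100 µg/ml, against 8.29, 8.56 and 8.52 in control. The exposed arrays of CPT1A lay within a narrow band that overlapped the controls. Its changes at 1 h were 0.04, 0.10, 0.05 and 0.08 (± 0.058 each, adjusted p from 0.346 to 0.762), and at 24 h they lay between -0.04 and 0.00.

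SLC25A20, the translocase that exchanges acylcarnitine for carnitine across the inner membrane, was 9.33, 9.26 and 9.28 with MWCNT at 100 µg/ml for 1 h, against 9.45, 9.36 and 9.42 in control. The arrays did not overlap, and the fall of 0.11 ± 0.035 was called, narrowly (1.08-fold, adjusted p = 0.0478). Its values on each array, like those of ACOX2, ETFB and CPT2, are given because it was called or set apart by time, a choice made after its values were seen. The call was lost without control array 1 or 3 (adjusted p = 0.161 and 0.117), without MWCNT array 2 or 3 (0.149 and 0.13), and with the 18S level as a covariate (0.592). CPT2, which returns the chain to coenzyme A inside the mitochondrion, changed by -0.01 to 0.10 in the 8 comparisons and was not called.

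No enzyme of the mitochondrial cycle was called against control. Among the acyl-CoA dehydrogenases, ACADVL, ACADM and ACADS, which take very long, medium and short chains, changed by -0.13 to 0.14, by -0.05 to 0.10 and by -0.10 to 0.03. ACADSB, which acts on short branched chains, changed by -0.07 to 0.17. ACADL, the long-chain enzyme, read between 3.20 and 3.80 on all 30 arrays, near the bottom of the scale, and its changes of -0.18 to 0.17 were not called. HADH, ACAA2, ECI1 and DECR1, which complete the cycle and deal with double bonds, changed by -0.11 to 0.13, by -0.05 to 0.10, by -0.13 to 0.07 and by -0.10 to 0.02, with no call.

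HADHA and HADHB encode the alpha and beta subunits of the trifunctional protein, which carries out the last 3 steps of the cycle on long chains. HADHB varied least of the members, with all 30 arrays between 11.64 and 11.80 (SD 0.031, smaller than that of all but 0.8% of probe sets). HADHA read between 11.31 and 11.48 (SD 0.036, smaller than all but 1.2% of probe sets). Their changes against control lay between -0.05 and 0.05 for HADHA and between -0.03 and 0.05 for HADHB.

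The genes of these subunits lie head to head on chromosome 2, HADHA from 26190635 to 26244632 and HADHB from 26244939 to 26290465 (RefSeq, GRCh38.p14), with 306 bases between their starts. The sequence they share upstream is shown because one stretch serves as the upstream region of both steady genes, and that of ACSL4 because ACSL4 changed most. Both are 5′ to 3′, the first on the plus strand towards HADHB (chr2:26244689-26244882, 194 bases, 68.6% G or C) and the second on the minus strand towards ACSL4 (chrX:109733258-109733507, the 250 bases before its start, 77.2% G or C). Capitals mark the GC box GGGCGG or its reverse complement.
HADHA and HADHB shared upstream stretch: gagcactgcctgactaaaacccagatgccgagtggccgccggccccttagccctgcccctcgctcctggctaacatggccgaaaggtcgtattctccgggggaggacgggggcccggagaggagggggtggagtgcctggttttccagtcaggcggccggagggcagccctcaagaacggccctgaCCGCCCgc
ACSL4 upstream stretch: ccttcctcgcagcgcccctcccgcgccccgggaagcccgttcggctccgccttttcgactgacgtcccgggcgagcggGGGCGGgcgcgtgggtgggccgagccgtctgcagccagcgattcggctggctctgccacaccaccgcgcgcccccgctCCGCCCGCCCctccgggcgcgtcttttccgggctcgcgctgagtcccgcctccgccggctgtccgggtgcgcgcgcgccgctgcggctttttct

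The shared stretch holds 1 GC box and that of ACSL4 holds 3, of which a pair overlap. Among the 24 members with a RefSeq window of 300 bases (250 before to 50 after the start), 19 held at least 1 GC box, or 23 of their 39 windows, against 45% of the 35116 windows of all genes. The classical PPAR element, a direct repeat spelled AGGTCANAGGTCA in which N is any base, searched on both strands, was in 0 of the 39 windows and in 0.0228% of all windows. Its half-site AGGTCA was in 1 window, that of ACSL5, against 13.8% of all windows. The whole element is so rare that 0 of 39 windows tells nothing about these genes, and sequence outside the windows was not searched. CCAAT, which may overlap other motifs, was in 7 windows and TATAAA in 6, against 34.6% and 11.5%.

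The electron transfer flavoproteins pass electrons from the dehydrogenases to ubiquinone: ETFA and ETFB are the subunits of the soluble carrier, and ETFDH is the membrane enzyme that receives from it. ETFA changed by -0.07 to 0.03 and was not called. ETFB was 11.73, 11.82 and 11.78 with MWCNT at 10 µg/ml for 1 h, against 11.88, 11.91 and 11.91 in control. The arrays did not overlap, and ETFB fell by 0.12 ± 0.035, or 1.09-fold (adjusted p = 0.033). The call was lost without control array 2 or 3 (adjusted p = 0.102 and 0.0882), without MWCNT array 1 or 3 (0.178 and 0.0737), and with the 18S level as a covariate (0.0575).

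ETFDH, on chromosome 4 from 158672296 to 158709623, is read by a pair of probe sets. On the brighter the levels at 1 h were 7.12, 7.35 and 7.28 with TiO2-NB at 10 µg/ml and 7.40, 7.08 and 7.31 at 100 µg/ml, against 7.52, 7.46 and 7.44 in control. On the dimmer they were 6.55, 6.52 and 6.62 and, at 100 µg/ml, 6.64, 6.53 and 6.62, against 6.63, 6.86 and 6.81 in control. TiO2-NB arrays were below all controls on both probe sets at 10 µg/ml, and at 100 µg/ml on the first alone.

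ETFDH fell with TiO2-NB at 10 µg/ml by 0.22 ± 0.069 on the brighter probe set (adjusted p = 0.0489) and by 0.21 ± 0.054 on the dimmer (adjusted p = 0.0188). At 100 µg/ml the changes were -0.21 and -0.17 and were not called (adjusted p = 0.0621 and 0.0539). With MWCNT, neither probe set was called (-0.07 on both at 10 µg/ml, and -0.10 and -0.13 at 100 µg/ml). The call on the brighter probe set was lost without any 1 of the 3 control arrays (adjusted p = 0.128, 0.104 and 0.0809), without TiO2-NB array 1 or 3 (0.239 and 0.0857), and with the 18S level as a covariate (0.159). That on the dimmer was lost without control array 2 or 3 (0.123 and 0.0819), without TiO2-NB array 1 or 2 (0.0585 and 0.0774), and with the covariate (0.108).

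ACOX2, the peroxisomal oxidase of branched chains and bile acid intermediates, was the one member called with all 4 exposures at 1 h. Its gene lies on chromosome 3 from 58505136 to 58537190. The log2 level was 8.84, 8.87 and 8.77 with MWCNT at 10 µg/ml, 8.92, 8.87 and 8.78 at 100 µg/ml, 8.92, 8.87 and 8.77 with TiO2-NB at 10 µg/ml, and 8.79, 8.82 and 8.83 at 100 µg/ml, against 8.97, 9.13 and 8.999 in control. All 12 exposed arrays lay below all 3 controls.

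The falls of ACOX2 with MWCNT were -0.21 ± 0.053 at the low dose and -0.18 at the high one (adjusted p = 0.0184 and 0.0391). With TiO2-NB they were -0.18 and -0.22, the last of them 1.16-fold (adjusted p = 0.036 and 0.00924). At 24 h the changes lay between 0.01 and 0.02. As with ACSL4, the 1 h control mean (9.03) was the outermost, and the other 9 group means lay between 8.81 and 8.86. Without control array 2, the highest, the adjusted p became 0.125 and 0.192 with MWCNT and 0.202 and 0.0692 with TiO2-NB at 10 and 100 µg/ml.

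The calls of ACOX2 at 10 µg/ml MWCNT were also lost without exposed array 1 or 3 (adjusted p = 0.0511 and 0.0852), those at 100 µg/ml without control array 3 (0.0532) or exposed array 2 or 3 (0.0743 and 0.18), and those with TiO2-NB at 10 µg/ml without control array 3 (0.0542) or exposed array 2 or 3 (0.0647 and 0.181). With the 18S level as a covariate, the call held with TiO2-NB at 100 µg/ml (adjusted p = 0.0173) and was lost in the other 3 comparisons (0.0593, 0.181 and 0.055). With the compared groups fitted alone every 1 h call of ACOX2 was lost (0.174 and 0.291 with MWCNT, 0.247 and 0.13 with TiO2-NB). After a second quantile normalisation the call with TiO2-NB at 10 µg/ml was lost (0.083). The other peroxisomal members were not called: EHHADH, the bifunctional enzyme, changed by -0.13 to 0.10, ACAA1, the thiolase, by -0.13 to 0.01, and ECI2, an isomerase for unsaturated chains, by -0.13 to 0.08.

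The 1 h control mean was the highest or lowest of all 10 group means for 8 of the 29 members (27.6%), among them ACSL4, ACOX2, ETFB and SLC25A20. Over all genes the share was 24%.

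The textbook PPAR targets were not called with either particle, at either dose or time, by the probe set that stands for each gene. PDK4, the kinase that holds back glucose oxidation when fat is burned, read between 3.60 and 4.12 on the 30 arrays. At 1 h it was 3.82, 3.85 and 3.70 with MWCNT at 10 µg/ml and 3.91, 3.84 and 4.002 at 100 µg/ml, and 3.95, 3.69 and 3.89 with TiO2-NB at 10 µg/ml and 3.94, 3.89 and 3.90 at 100 µg/ml, against 3.96, 4.01 and 3.85 in control. Only the MWCNT arrays at 10 µg/ml lay below all controls. Its changes over the 8 comparisons lay between -0.15 and 0.12, at levels near the bottom of the scale.

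ANGPTL4, a secreted inhibitor of lipoprotein lipase, was at 24 h 6.63, 6.64 and 6.76 with MWCNT at 10 µg/ml and 6.66, 6.79 and 6.72 at 100 µg/ml, and 6.80, 6.66 and 6.63 with TiO2-NB at 10 µg/ml and 6.58, 6.75 and 6.72 at 100 µg/ml, against 6.62, 6.64 and 6.64 in control. Only the MWCNT arrays at 100 µg/ml all lay above the controls, and by small margins. Its changes were 0.04, 0.09, 0.06 and 0.05 at 24 h (± 0.078, adjusted p from 0.879 to 1.00), and -0.16 to -0.04 at 1 h.

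PLIN2, which coats lipid droplets, was at 24 h 11.96, 12.02 and 12.02 with MWCNT at 10 µg/ml and 12.08, 12.05 and 11.95 at 100 µg/ml, and 11.98, 11.96 and 12.04 with TiO2-NB at 10 µg/ml and 12.03, 12.08 and 12.06 at 100 µg/ml, against 12.07, 12.01 and 11.97 in control. These groups overlapped. At 1 h the changes were -0.16 and -0.08 with MWCNT and -0.14 and -0.06 with TiO2-NB (± 0.062, adjusted p from 0.141 to 0.636).

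CD36, a fatty acid transporter at the cell surface, read between 3.34 and 3.75 on its brightest probe set, near the bottom of the scale. At 24 h it was 3.496, 3.39 and 3.55 with MWCNT at 10 µg/ml and 3.34, 3.47 and 3.60 at 100 µg/ml, and 3.54, 3.39 and 3.53 with TiO2-NB at 10 µg/ml and 3.46, 3.45 and 3.35 at 100 µg/ml, against 3.60, 3.54 and 3.59 in control. The TiO2-NB arrays at 100 µg/ml and at 10 µg/ml lay below the controls, by small margins. The largest change was -0.16 ± 0.082 with TiO2-NB at 100 µg/ml (adjusted p = 0.446).

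After 24 h, 0 of the 29 members were called in any of the 4 comparisons with control by limma, against 0%, 0.00836%, 0.0502% and 3.15% of all genes with MWCNT at 10 and 100 µg/ml and TiO2-NB at 10 and 100 µg/ml. At an unadjusted p under 0.05 the members numbered 0, 1, 0 and 1, with no count over all genes at that threshold. The smallest adjusted p was 0.295, for ACAA2 with TiO2-NB at 100 µg/ml. The precision at this time was fair: the 95% interval of each of the 29 members lay within 1.5-fold of control in all 4 comparisons, and within 1.2-fold for 26, 26, 25 and 22 of them. At 1 h the intervals lay within 1.5-fold for 28, 28, 29 and 29 members, with ACSL4 as the exception in both MWCNT comparisons.

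The changes at 24 h were small, and all 4 comparisons share their 3 control arrays. With MWCNT at 100 µg/ml 24 of the 29 members were above control (median change 0.02, against 0.00 over all genes), and with TiO2-NB at 100 µg/ml 21 were (median 0.02, against 0.01). With MWCNT and TiO2-NB at 10 µg/ml those above control numbered 17 and 14. At 1 h the members above control numbered 12 and 11 with MWCNT at 10 and 100 µg/ml and 8 and 11 with TiO2-NB. The share of all genes above control was not counted, so no joint shift can be read from these counts. The largest single values at 24 h were those of ACSL1 with TiO2-NB at 100 µg/ml (0.17) and of ACADL with MWCNT at 100 µg/ml (0.17), neither of them called. Exposed and control arrays did not overlap for 1, 4, 2 and 3 members, against 12.5%, 14.8%, 14.5% and 23.1% of all genes.

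No member was called between doses or between particles by the probe set that stands for it. Between 100 and 10 µg/ml, 0 of 29 members were called by limma with MWCNT at 1 h, MWCNT at 24 h, TiO2-NB at 1 h and TiO2-NB at 24 h, against 0%, 0%, 0% and 1.62% of all genes. The members with an unadjusted p under 0.05 numbered 1, 1, 0 and 0. Between MWCNT and TiO2-NB at the same dose, 0 of 29 were called at 10 µg/ml (0.0752% of all genes at 1 h, 0.0418% at 24 h) and 0 of 29 at 100 µg/ml (0% at 1 h, 2.69% at 24 h). With an unadjusted p under 0.05 there were 4 and 0 at 10 µg/ml and 1 and 1 at 100 µg/ml. For doses and particles alike, all genes were not counted at the unadjusted threshold.

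The change of the effect from 1 to 24 h was tested as an interaction, and 0 of 29 members were called, against 2.35% and 3.38% of all genes with MWCNT at 10 and 100 µg/ml and 4.66% and 6.5% with TiO2-NB. The members with an unadjusted p under 0.05 numbered 4, 9, 3 and 3. The share of all genes at that threshold was not counted, so no excess can be read from these numbers. For ACSL4 the effect at 24 h minus that at 1 h was -0.52 ± 0.15 with MWCNT at 10 µg/ml (adjusted p = 0.0689) and -0.42 ± 0.15 at 100 µg/ml (adjusted p = 0.13). So the disappearance of the ACSL4 and ACOX2 calls by 24 h was not itself a called difference.

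The dimmer probe set of ETFDH was the exception. At 24 h it read 6.86, 6.98 and 6.99 with TiO2-NB at 10 µg/ml and 6.81, 6.88 and 6.85 at 100 µg/ml, against 6.74, 6.69 and 6.83 in control, so that the TiO2-NB arrays lay above the controls at 10 µg/ml, where at 1 h they had lain below. The effect at 24 h exceeded that at 1 h by 0.40 ± 0.077 with TiO2-NB at 10 µg/ml (adjusted p = 0.00389) and by 0.26 ± 0.077 at 100 µg/ml (adjusted p = 0.0408). The second of these calls was lost without any 1 of 8 of its 12 arrays, with adjusted p up to 0.123, and under 4 other alternatives, with adjusted p from 0.0545 to 0.138. On the brighter one the same differences were 0.21 and 0.16 and were not called (adjusted p = 0.256 and 0.406).

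The controls were compared between times, where time in culture and time since the fresh medium cannot be told apart. Between the controls at 24 h and at 1 h, 6 of 29 members were called (20.7%, against 21.1% of all genes). ACSL4 rose by 0.44 ± 0.10, and CPT2, ACOX2, ETFB, ECI1 and SLC25A20 fell by 0.25, 0.23, 0.19, 0.15 and 0.12. The arrays of the groups did not overlap for 10 of 29 members, against 37.6% of all genes. The calls of SLC25A20 and ECI1 were lost without control array 3 of 24 h (adjusted p = 0.119 and 0.117) or control array 3 of 1 h (0.0521 and 0.0515), that of SLC25A20 also without control array 1 of 1 h (0.077), and that of ECI1 without control array 2 of 1 h (0.0781). Both calls were also lost after a second quantile normalisation (0.124 and 0.0528) and with the compared groups fitted alone (0.178 and 0.111).

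CPT2 differed between times in exposed and control cells alike. Its level at 24 h was 8.28, 8.30 and 8.11 with MWCNT at 10 µg/ml, 8.23, 8.24 and 8.22 at 100 µg/ml, 8.23, 8.19 and 8.21 with TiO2-NB at 10 µg/ml, 8.19, 8.21 and 8.37 at 100 µg/ml, and 8.26, 8.22 and 8.19 in control. At 1 h it was 8.53, 8.52 and 8.59 with MWCNT at 10 µg/ml, 8.48, 8.64 and 8.59 at 100 µg/ml, 8.44, 8.55 and 8.50 with TiO2-NB at 10 µg/ml, 8.56, 8.39 and 8.52 at 100 µg/ml, and 8.45, 8.38 and 8.60 in control. Every array at 24 h lay below every array at 1 h. In the controls CPT2 fell by 0.25 ± 0.060 (1.19-fold, adjusted p = 0.0039).

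Where a gene had several probe sets, they did not always move together. The dimmer probe set of CPT2 read 7.96, 7.89 and 7.70 with TiO2-NB at 100 µg/ml for 24 h, against 8.20, 8.21 and 8.11 in control. These arrays did not overlap, and it fell by 0.32 ± 0.067 (1.25-fold, adjusted p = 0.00359), while the brighter changed by 0.03 ± 0.060 (adjusted p = 0.89). The call was lost without TiO2-NB array 3, the lowest (adjusted p = 0.0622), and when the compared groups were fitted alone (0.1).

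UCP2, a mitochondrial carrier of the uncoupling protein family and a PPAR target, rose on the dimmer of its pair of probe sets with TiO2-NB at 1 h. It read 7.38, 7.40 and 7.43 at 10 µg/ml and 7.25, 7.47 and 7.55 at 100 µg/ml, against 7.26, 7.21 and 7.04 in control. The arrays were apart at 10 µg/ml and overlapped at 100 µg/ml. The changes were 0.23 ± 0.073, with an adjusted p that rounds to 0.05 and lies just under it, and 0.25 ± 0.073 (adjusted p = 0.0328). On the brighter they were 0.12 and 0.05 and were not called (adjusted p = 0.298 and 0.725). Both calls were lost without control array 2 or 3 (adjusted p = 0.0824 and 0.247 at 10 µg/ml, 0.0512 and 0.198 at 100 µg/ml). The call at 10 µg/ml was also lost without any 1 of the TiO2-NB arrays (0.0901, 0.106 and 0.136), and that at 100 µg/ml without TiO2-NB array 2 or 3 (0.123 and 0.167). With the 18S level as a covariate the adjusted p was 0.171 and 0.122, and with the compared groups fitted alone 0.164 and 0.236.

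HADHA has 3 probe sets. Its brighter pair of probe sets were among the steadiest of all, while the dimmest ranged from 8.44 to 9.38 (SD 0.22, larger than that of 91.6% of probe sets). With TiO2-NB at 100 µg/ml for 24 h it read 8.78, 8.61 and 8.64, against 8.87, 8.92 and 8.94 in control, with no overlap and a change of -0.24 ± 0.094 that was not called (adjusted p = 0.246). What the separate probe sets detect was not tested.

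**Figure D3:**
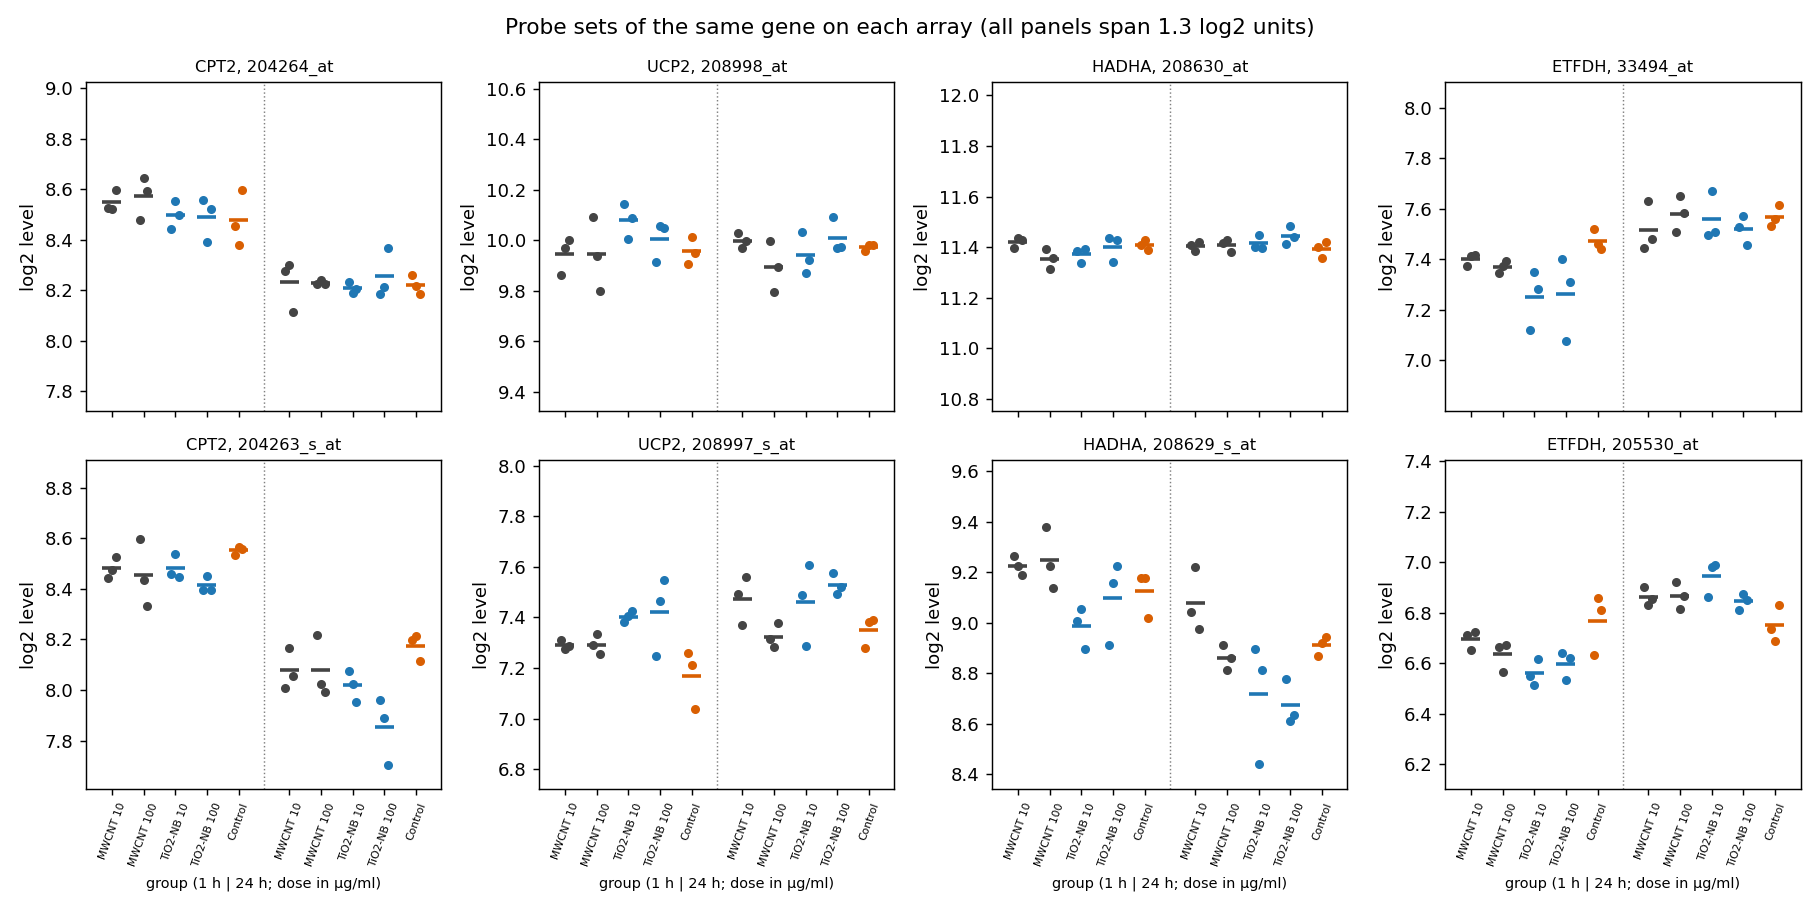
Log2 level on each array (points) and group mean (bars) of a pair of probe sets for CPT2, UCP2, HADHA and ETFDH, with the exposed groups left of their control (orange), 1 h left of 24 h, and 1.3 log2 units on every vertical axis. For HADHA the upper panel is flat and the lower one is not, and for CPT2 the lower panel alone is below control with TiO2-NB at 100 µg/ml for 24 h.

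The receptors that drive these genes were examined as a wider list, 14 of 17 measured. At 1 h PPARG, the PPAR receptor best known from fat cells and abundant in colon epithelium, fell with every exposure. Its level was 8.81, 8.76 and 8.73 with MWCNT at 10 µg/ml, 8.82, 8.73 and 8.90 at 100 µg/ml, 8.81, 8.83 and 8.59 with TiO2-NB at 10 µg/ml, and 8.59, 8.70 and 8.73 at 100 µg/ml, against 9.57, 9.65 and 9.43 in control. All 12 exposed arrays lay more than the whole spread of the controls below them. The falls were 0.78, 0.73, 0.81 and 0.88 (± 0.064, adjusted p of 6.41e-08, 1.39e-07, 2.04e-08 and 4.04e-09), and each call held under the 7 alternative analyses other than leaving out arrays, the 18S covariate and the compared groups alone among them.

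At 24 h PPARG read 10.05, 10.12 and 10.11 with MWCNT at 10 µg/ml, 10.13, 10.12 and 10.01 at 100 µg/ml, 10.12, 10.13 and 10.29 with TiO2-NB at 10 µg/ml, and 10.31, 10.37 and 10.35 at 100 µg/ml, against 10.17, 10.10 and 10.15 in control. Only the TiO2-NB arrays at 100 µg/ml stood above all controls, by 0.20 ± 0.064, which was not called (adjusted p = 0.0946). The interaction was called for all 4 exposures, with differences of 0.73, 0.68, 0.85 and 1.08. PPARG also rose in the controls, by 0.59 ± 0.064 at 24 h over 1 h (adjusted p = 2.64e-07).

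PPARA, the receptor that most of the members are known to answer to, was 5.33, 5.40 and 5.28 with MWCNT at 10 µg/ml for 1 h, 5.52, 5.68 and 5.57 at 100 µg/ml, 5.44, 5.50 and 5.56 with TiO2-NB at 10 µg/ml, and 5.53, 5.37 and 5.41 at 100 µg/ml, against 5.32, 5.38 and 5.25 in control. The MWCNT arrays at 100 µg/ml and the TiO2-NB arrays at 10 µg/ml lay above all controls. Only the first was called (0.28 ± 0.081, adjusted p = 0.036). RXRA, the partner receptor, fell at 1 h by 0.24, 0.18, 0.22 and 0.22 (± 0.044), calls that were lost when the compared groups were fitted alone. PPRC1, a coactivator of the PGC-1 family, rose by 0.32, 0.43, 0.29 and 0.39 (± 0.059).

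In that list of receptors and coactivators 1, 3, 1 and 1 genes rose and 2, 2, 3 and 2 fell at 1 h, in the order MWCNT at 10 and 100 µg/ml and TiO2-NB at 10 and 100 µg/ml, and 11, 9, 10 and 11 of the 14 were not called. Over all genes 7.86%, 9.44%, 9.52% and 10.5% were called. At 24 h 0%, 0.00836%, 0.0502% and 3.15% of all genes were called, in the same order of exposures. None of the list was called then except with TiO2-NB at 100 µg/ml, where MED1, a Mediator subunit that binds PPAR receptors, fell by 0.69 ± 0.12 (adjusted p = 0.000479), as did NCOA1. MED1 was 8.65, 8.31 and 7.79 there, against 8.92, 8.98 and 8.93 in control, all below the controls and array 3 the lowest. The SD of MED1 was 0.435 in that exposed group, against 0.032 in control. Its ± and adjusted p rest on the spread pooled over all groups, so they do not measure the wider spread of this group. Single arrays were not left out for MED1. PPARG fell at 1 h while CPT1A, PDK4, ANGPTL4, PLIN2 and CD36 were not called, and transcripts were measured here, not receptor protein or activity. Of these targets PDK4 and CD36 read near the bottom of the scale, where a fall could hardly show.

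**Figure D4:**
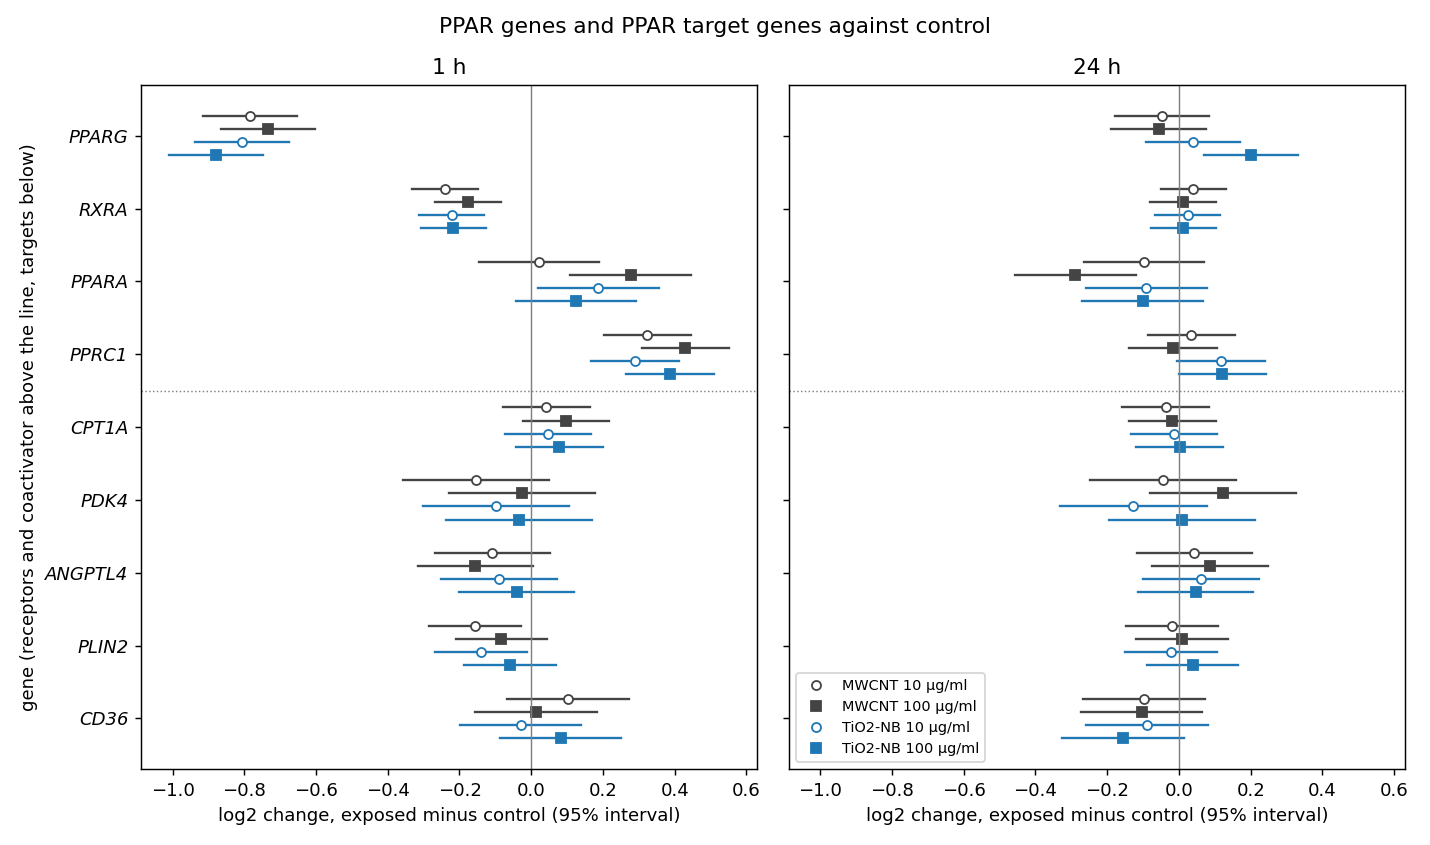
Log2 change against control with its 95% interval for PPARG, RXRA, PPARA and PPRC1 (above the dotted line) and 5 PPAR targets (below it), at 1 h (left) and 24 h (right), for MWCNT (grey) and TiO2-NB (blue) at 10 µg/ml (open circles) and 100 µg/ml (filled squares). At 1 h PPARG lies between -0.88 and -0.73, while the targets lie between -0.16 and 0.10. PDK4 and CD36 read near the bottom of the scale, where a fall could hardly show.

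Other PPAR targets outside the 31 genes, 23 of 35 measured, gave 0, 0, 2 and 1 calls at 1 h in the same order of exposures, against 7.86%, 9.44%, 9.52% and 10.5% of all genes. With MWCNT 0 of 23 were called by limma at either dose or time, against 0% and 0.00836% of all genes at 24 h. With TiO2-NB at 1 h TXNIP, an arrestin-like protein that restrains glucose uptake, fell by 0.14 at 10 µg/ml and by 0.19 at 100 µg/ml, and PEX11A, which drives peroxisome division, fell by 0.40 at 10 µg/ml. With TiO2-NB at 100 µg/ml for 24 h PLIN3, another lipid droplet coat, was the one called, against 3.15% of all genes: it read 9.97, 9.94 and 9.78, against 10.19, 10.22 and 10.28 in control, and fell by 0.33 ± 0.054 (adjusted p = 0.000214).

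Other genes of mitochondrial fat oxidation and ketone metabolism, 19 of 24 measured, gave calls in 1 direction at 1 h. With MWCNT at 10 and 100 µg/ml and TiO2-NB at 10 and 100 µg/ml, 4, 6, 3 and 4 of them fell and 0 rose, while 15, 13, 16 and 15 were not called. Over all genes 7.86%, 9.44%, 9.52% and 10.5% were called in either direction. The list medians were -0.08, -0.09, -0.05 and -0.06. SLC22A5, the transporter that brings carnitine into the cell, was 8.21, 8.22 and 8.29 with MWCNT at 10 µg/ml, 8.27, 8.23 and 8.29 at 100 µg/ml, 8.11, 8.28 and 8.17 with TiO2-NB at 10 µg/ml, and 8.21, 8.16 and 8.22 at 100 µg/ml, against 8.48, 8.42 and 8.51 in control. All 12 exposed arrays lay below the controls.

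SLC22A5 fell by 0.23, 0.21, 0.29 and 0.28 (± 0.043, adjusted p of 0.00126, 0.00289, 9.7e-05 and 0.000151). ACOT13, an acyl-CoA thioesterase, fell by 0.24, 0.18, 0.17 and 0.22, and ACSM3, a medium-chain acyl-CoA synthetase, by 0.29, 0.21, 0.34 and 0.37. BDH1, the mitochondrial enzyme that interconverts the ketone bodies, fell by 0.22 and 0.24 with MWCNT and by 0.27 with TiO2-NB at 100 µg/ml. At 24 h 0 of the 19 were called with any exposure, against 0% to 3.15% of all genes. The list was assembled with earlier results of these data known, and its 1 h calls share the control arrays of the members. Many calls of members and of named wider-list genes depended on the analysis. With the compared groups fitted alone 49 of them were lost, and with the 18S level as a covariate 22. Calls of wider-list genes were among the losses each time.

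Peroxisomal genes outside the 31, 16 of 21 measured, gave a single call over the 8 comparisons, CAT, the catalase that clears peroxide made by the oxidases, which fell by 0.12 with TiO2-NB at 10 µg/ml for 1 h. Lipolysis and droplet genes, 11 of 15 measured, gave 4. All genes gave 7.86% to 10.5% in each comparison at 1 h, and 0% to 3.15% at 24 h. PNPLA2, the first lipase of stored fat, rose with TiO2-NB at 1 h by 0.21 and 0.17, MGLL, the last, rose with MWCNT at 100 µg/ml by 0.20, and PNPLA3, a droplet protein with lipase activity, fell with TiO2-NB at 100 µg/ml for 24 h by 0.67 ± 0.14. PNPLA3 was 6.90, 6.53 and 6.04 there, against 7.09, 7.23 and 7.14 in control, all below the controls with array 3 the lowest. The SD of PNPLA3 was 0.433 in that exposed group, against 0.071 in control. Its ± and its call rest on the spread pooled over all groups, not on that of this group. Single arrays were not left out for PNPLA3. HILPDA, an inhibitor of that first lipase, was not called with a particle but rose with time in the controls, to 10.87, 10.69 and 10.77 at 24 h, against 8.59, 8.91 and 8.62 at 1 h.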

How the data were processed

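The values deposited by the authors are log2 levels per probe set. They were produced by RMA, as the submitters' processing notes name it, which corrects background, makes the array distributions alike and summarises each probe set (version not given in the sources used here). After leaving out the 62 control probe sets, 22215 were tested, with no further scaling. Of these, 19064 carry 1 gene symbol in the platform annotation. Tests used R 4.3.3 and limma 3.58.1: lmFit with a mean per group over all 30 arrays (20 residual degrees of freedom), eBayes, two-sided, and Benjamini-Hochberg adjustment within each comparison across all probe sets. The scripts were tested on simulated data. An array has no read depth, and 3 arrays per group limit the precision. P-values measure the spread between arrays labelled as biological replicates from pooled flasks.

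The members and wider lists were chosen with earlier results of these data known. Named were every called member, members given by role, up to 4 genes of each wider list, and PPARA and NCOA1 besides. Arrays were to be printed of CPT1A, PDK4, ANGPTL4, PLIN2, CD36, PPARA, PPARG and members called with a change of at least 0.3. Outside these rules, arrays of ACOX2, ETFB, SLC25A20, CPT2, UCP2, the dimmest HADHA probe set and some wider-list genes were printed too. Alternatives were a fit of the compared groups only, a replicate block, the lowest 1 in 3 of probe sets left out, quantile normalisation repeated, robust variances with an intensity trend, the 18S level as covariate, the mean of a gene's probe sets, and each array left out. Motifs were counted in RefSeq promoter windows (GRCh38.p14).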

Additional observations from a re-analysis of the deposited data

Results flagged for a closer look

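The effect of TiO2-NB on the dimmer of the ETFDH probe sets differed between 24 h and 1 h, by a test of the difference itself. At 10 µg/ml it was larger at 24 h by 0.40 log2 units (adjusted p = 0.00389). This held without any 1 of the 12 arrays involved (adjusted p at most 0.0149) but not on the compared groups alone (0.0695). At 100 µg/ml it was larger at 24 h by 0.26 (adjusted p = 0.0408), and 8 of the 12 single-array omissions ended the call (adjusted p at most 0.123). It was also lost after a second quantile normalisation (0.0545), with the intensity trend (0.0625), with the 18S covariate (0.085) and on the compared groups alone (0.138). The other ETFDH probe set gave 0.21 and 0.16, with no call.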

How the results depend on the processing

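The calls at 1 h depended on the analysis, and the cause was not tested. Fitted on the compared groups alone, 0 members were called in each of the 4 comparisons with control at 1 h (0.485%, 0.577%, 1.25% and 1.49% of all genes), where fewer arrays estimate the spread. With the 18S level as a covariate, the counts were 0 and 0 with MWCNT at 10 and 100 µg/ml, 0 with TiO2-NB at 10 µg/ml and 1 at 100 µg/ml (3.86%, 2.01%, 7.22% and 7.96% of all genes). With TiO2-NB at 10 µg/ml the count was also 1 with the replicate block, 0 after a second quantile normalisation and 4 with the mean of a gene's probe sets. Leaving out 1 array gave 0 to 3 members with MWCNT at 10 µg/ml (0 without control array 2 or MWCNT array 1), 0 to 3 at 100 µg/ml (0 without MWCNT array 3), 0 to 1 with TiO2-NB at 10 µg/ml (0 without control array 2 or TiO2-NB array 3) and 0 to 2 at 100 µg/ml (0 without control array 2). At 24 h, and between doses and particles, the count was 0 under every alternative run. For the interactions 1 member was called with the lowest 1 in 3 of probe sets left out and with the intensity trend, for MWCNT at 10 and 100 µg/ml and TiO2-NB at 100 µg/ml, 1 for MWCNT at 100 µg/ml after a second quantile normalisation, and 1 for TiO2-NB at 10 µg/ml with the mean of a gene's probe sets. Leaving out 1 array gave 0 to 1 for MWCNT at 10 µg/ml (1 without control array 3 of 1 h or MWCNT array 2 of 24 h) and for TiO2-NB at 100 µg/ml (1 without TiO2-NB array 1 of 24 h). The control time comparison gave 4 to 6. No result changed direction. Replicate numbers did not pair the samples: 5 of 24 same-numbered pairs correlated above 0.1 (from -0.117 to 0.209), 12 correlated best with their own number, and the replicate block otherwise changed no count by over 1.5 times. Under that block the adjusted p was 0.0565 for SLC25A20 with MWCNT at 100 µg/ml, and 0.0548 for the brighter ETFDH probe set and 0.056 for the dimmer UCP2 probe set with TiO2-NB at 10 µg/ml, all at 1 h. Single arrays were not left out for the wider lists. Calls of named wider-list genes are among the 49 lost with the compared groups fitted alone and the 22 lost with the 18S covariate, counted together with those of members. PDK4, CD36 and ACADL lie near the bottom of the scale, the table has no detection call, and small changes there cannot be read.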
